A study of Bos taurus with 20 samples.

Results

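Interferon-stimulated genes were followed in the endometrium of 10 cows, each biopsied late and early after calving. The set is a list of 40 genes matched to the gene names of a bovine oligonucleotide array. Of these, 35 were found by the array's own gene name, and 4 (OAS1X, OAS1Y, OAS1Z and DHX58, which the array calls OAS1 or LGP2) by the transcript accession of their probes. They had 72 of the array's 43653 probes, and 39 of its 25400 gene names. IFI44L was not analysed here, and the gene listed as DDX58 carries the newer symbol RIGI. Genes were tested where a probe stood well above background on 8 or more of the 20 arrays, which held for 36 members. IFIT1, OAS1Z and OAS2 did not, and their values are given as levels.

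The late biopsies were taken 343 to 436 days after calving and the early ones 42 to 86 days after it, 10 of each. Biopsy forceps took the tissue at day 7 of the oestrous cycle from the horn nearest the corpus luteum. The animals were female Bos taurus cows with no treatment given in the labels; breed and age are not given in the sources used here. The labels give days after calving and not whether both biopsies of a cow followed the same calving, so age and the order of sampling cannot be told apart from period. Levels are log2 of the processed signal relative to the array's 75th percentile, so a difference of 1 is 2-fold and a level of 0 is the signal that 75% of probes do not exceed. Levels of different probes are not compared with each other.

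Interferons are secreted proteins that cells release on sensing viral nucleic acid, and their receptors signal through the kinases JAK1 and TYK2 to STAT2, which binds DNA together with IRF9. The genes switched on in this way include sensors of viral RNA, the ubiquitin-like protein ISG15 with the enzymes that attach and remove it, and effectors that bind viral RNA or block viral entry, replication or release. In cattle and sheep the endometrium is also known as a target of interferon tau, which the trophoblast of the early embryo secretes.

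The share of gene spots well above background ran from 71.8% to 80.2% over the arrays, and the 75th percentile lay between 10.73 and 11.02 on the log2 scale. The endometrial genes HOXA10 and MSX1, the epithelial gene EPCAM and the stromal gene VIM were bright in both periods, with late means of 3.29, 5.96, 4.50 and 5.90 against early means of 3.61, 5.56, 4.13 and 6.22. The other endometrial genes tested were dimmer. PGR had means of -1.54 late and -1.50 early, ESR1 -5.04 and -4.84, and FOXA2 -3.09 and -3.41. FOXL2 had an early median of -5.39 over the cows other than cow 1. The early array of cow 4 stands apart over all genes, with 26.1% of genes at their highest early level there, against 3.27% to 18.4% on the 9 other early arrays. The 20 arrays lay on 5 slides, of which 4 held 1 period and the third held the late arrays of cows 1 and 2 with the early arrays of cows 9 and 10. Titles and animal numbers give both arrays of a cow the same number, but the source name field numbers the late cows differently, so results are also given without pairing.

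The probes are 60-base oligonucleotides placed by the files on the cattle build HGSC Btau_3.1, without exon or UTR annotation. Sequences of 5 of them are shown because their pairs behave alike or differ. The 2 ISG15 probes lie at chr16:48718914-48718973 and chr16:48718882-48718941 on the minus strand and overlap by 28 bases, and the 2 HERC6 probes lie at chr6:37128613-37128672 and chr6:37128644-37128703 on the minus strand and overlap by 29. Capitals mark the bases that the probes of a pair share, so each pair is close to a repeat of 1 measurement.
ISG15, brighter probe: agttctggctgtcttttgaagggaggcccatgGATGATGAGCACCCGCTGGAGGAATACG
ISG15, other probe: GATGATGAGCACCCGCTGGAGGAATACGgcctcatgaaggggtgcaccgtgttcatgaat
HERC6, brighter probe: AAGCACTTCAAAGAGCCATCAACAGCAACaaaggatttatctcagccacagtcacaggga
HERC6, other probe: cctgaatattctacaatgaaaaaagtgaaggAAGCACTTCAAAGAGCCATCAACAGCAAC
IFIH1, other probe: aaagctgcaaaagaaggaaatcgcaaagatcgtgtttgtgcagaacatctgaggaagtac
The IFIH1 probe shown, in lower case because nothing in it is compared, lies at chr2:35326383-35326998 on the plus strand, a span of 616 bases for 60 bases of probe, so that it reads across an intron. The brighter IFIH1 probe lies at chr2:35337628-35337687 on the same strand and holds a stop codon in each of its 3 sense frames. For the OAS1 family, the OAS1X probe (chr17:64590856-64590915), the OAS1Y probe (chr17:64574690-64574749) and the OAS1Z probes (chr17:64590651-64590710 and chr17:64606830-64606889), all on the minus strand, shared runs of at most 6 bases with each other, whichever were paired.

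Late against early, the interferon-stimulated genes mostly had lower levels late, with none past the threshold. The difference was negative for 33 of the 36 members (91.7%, against 47.1% of the 19444 genes tested), and the members' median difference was -0.32, against 0.02 over all genes. Single members ran from -1.03 for ISG15 to 0.35 for HERC5. In the paired limma fit no member had an adjusted p under 0.05, where 1.31% of all genes did (255, of which 151 lower late). Without adjustment, 10 members were under 0.05, which is 27.8% of the members and 22.6% of all genes; all 10 were lower late, a direction in which 10.2% of all genes were under 0.05. From cow to cow the members' median difference varied with an SD of 0.67 (n = 10), from -2.13 in cow 1 to 0.23 in cow 9. This SD is a spread over cows and not the error of the difference. In biopsies, fewer cells of a type and less RNA per cell cannot be told apart.

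**Figure D1:**
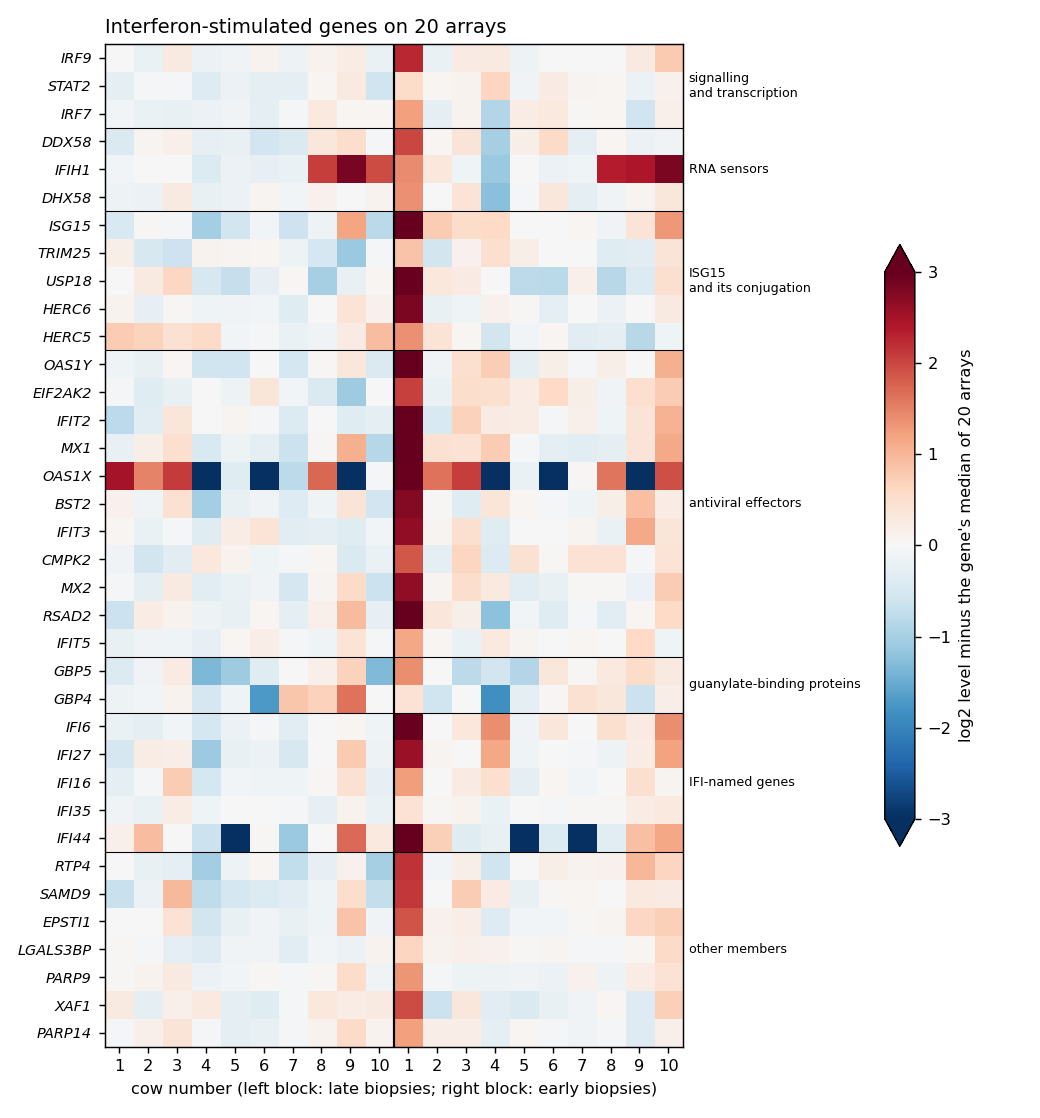
Log2 level of each of 36 interferon-stimulated genes on 20 arrays (late arrays of cows 1 to 10 on the left, early arrays on the right) minus the gene's median of the 20 arrays, coloured from -3 to 3, with genes grouped by role. The early array of cow 1 is the highest early array for 33 of the 36 genes; OAS1X, IFIH1 and IFI44 vary by cow in both periods.

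One animal carries a large share of that difference. Cow 1 had the highest early mean of the members, and without it 26 members were lower late and 10 higher, where 47.5% of all genes were lower, with a median difference of -0.19. No member was called in that fit either, where 0.226% of all genes were (44), and the lowest adjusted p of a member was 0.105 (limma). Unadjusted, 10 members were under 0.05, 8 of them also under it with all cows, against 20.6% of all genes. The absolute difference became smaller for 31 members. Cow 1 was chosen for its high early level, so smaller differences without it follow from that choice and are no test. Without pairing by cow, 0 members were called, against 0.612% of all genes, and 10 had an unadjusted p under 0.05, against 18.2% of all genes (limma). Without cow 4, whose early array stands apart, 33 members were lower late, against 46.9% of all genes, with a median difference of -0.35. In that fit 6 of the 36 had an unadjusted p under 0.05 (limma), against 21.4% of all genes.

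On the slide that held both periods, 30 of the 36 members were lower in the 2 late arrays than in the 2 early ones, against 54.2% of all genes, with a median difference of -0.47, though these arrays come from different cows and no gene passed. With slide as a fixed block beside cow, all 36 differences were negative, against 50.3% of all genes, with a median of -1.29, no gene was called, and standard errors were 4.81 times as large at the median. With slide as a random block 34 members were lower late, against 47.2% of all genes, with a median of -0.33. Period and slide are therefore only partly separable here. In the fixed-block fit, this layout gives every cow more weight than the paired fit does, with the sign reversed for some cows. The members' mean difference in cow 1 was -2.20, the largest of any cow. The part of that cow in the -1.29 was not tested. The slide with both periods holds the early array of cow 10, whose mean over the members was the next highest early one after cow 1.

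**Figure D2:**
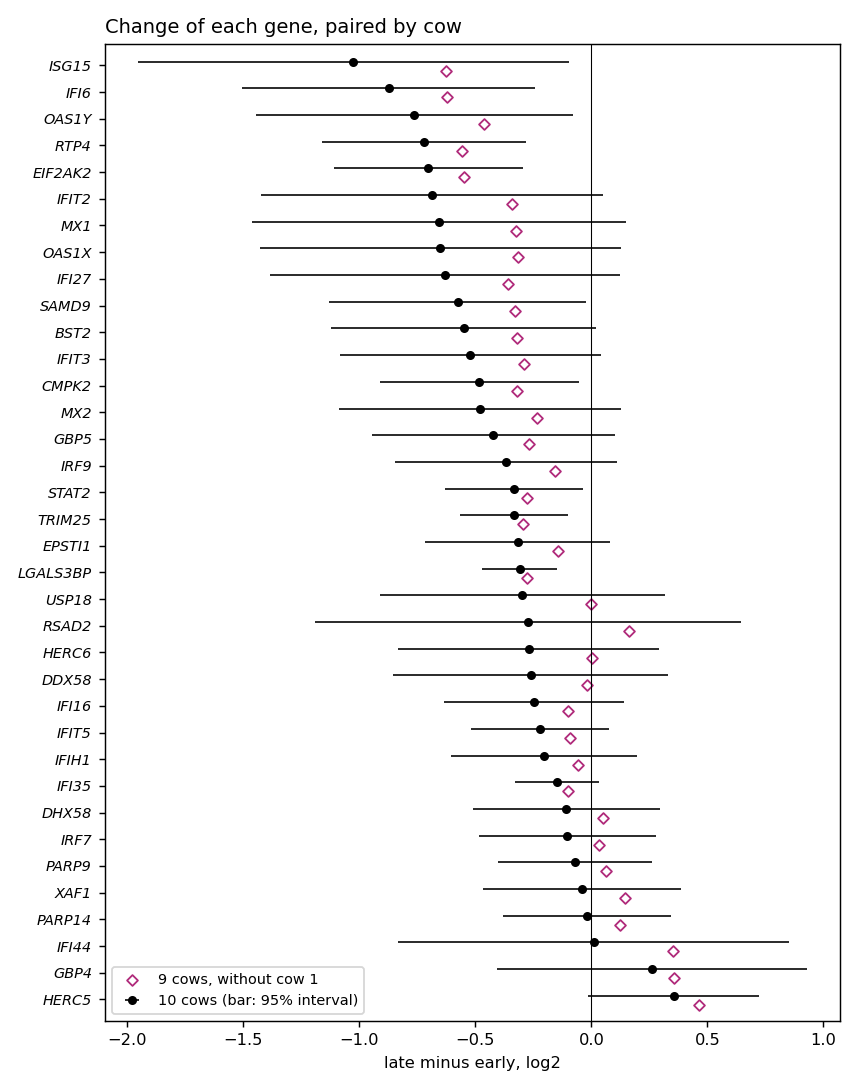
Late minus early log2 difference of each of 36 interferon-stimulated genes, paired by cow, for all 10 cows (black, with 95% confidence intervals) and without cow 1 (open diamonds). No gene passed the threshold; leaving out cow 1 moves most genes toward 0, and LGALS3BP, TRIM25 and STAT2 little.

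Among the signalling genes, STAT2, IRF9 and IRF7 all had negative differences. STAT2, which joins IRF9 on DNA, had a lowest, median and highest level of -0.56, -0.19 and 0.31 late, against -0.15, 0.12 and 0.67 early. The ranges overlap, and 8 of 10 cows were lower late. Its difference was -0.33 ± 0.14 (SE, adjusted p = 0.182, limma) and -0.28 without cow 1. A second, dim STAT2 probe, above background on only 8 arrays, had a difference of 0.13, the only disagreement in sign among the 20 members with several tested probes. IRF9, the DNA-binding partner, differed by -0.37 ± 0.22 on its brightest probe (-0.16 without cow 1), and by -0.77 and -0.61 on 2 dimmer ones. IRF7, which drives interferon genes, differed by -0.10 ± 0.17, and by 0.03 without cow 1.

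The RNA sensors are helicases that recognise viral RNA in the cytosol. DDX58 (RIG-I), IFIH1 (MDA5) and DHX58 (LGP2) differed by -0.26 ± 0.27, -0.20 ± 0.18 and -0.11 ± 0.18, and the 95% interval of each includes 0. Without cow 1 these differences were -0.02, -0.06 and 0.05. A second DDX58 probe gave -0.45 with all cows. All of them had their lowest early level in cow 4, at -0.47 for DDX58, -5.17 for IFIH1 and -2.70 for DHX58. That array is the one on which 26.1% of all genes were at their highest early level.

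ISG15, a ubiquitin-like protein that is joined to other proteins, had the largest difference of any member on the log2 scale. Its lowest, median and highest levels were 0.09, 0.81 and 2.29 late, against 1.01, 1.59 and 5.28 early. The highest early value is cow 1, far above the next early array at 2.41 (cow 10), and the highest late value is cow 9. The ranges overlap, though 9 of 10 cows were lower late. The difference was -1.03 ± 0.42 (2.04-fold lower late, adjusted p = 0.187, limma) and -0.63 without cow 1, and the overlapping second probe gave -0.99.

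Of the enzymes around ISG15, TRIM25, a ubiquitin ligase that activates RIG-I, had levels of 1.65, 2.66 and 2.94 late (lowest, median, highest) against 2.22, 2.84 and 3.62 early. Its difference was -0.33 ± 0.11 (adjusted p = 0.114, limma), lower in 8 of 10 cows, and its value without cow 1 was -0.29. HERC5, known in human cells as the main ligase that attaches ISG15, ran the other way. It had 0.20, 0.75 and 1.32 late against -0.45, 0.29 and 1.76 early, with 8 of 10 cows higher late and cow 1 the highest early. The difference was 0.35 ± 0.17 (adjusted p = 0.237, limma) and 0.46 without cow 1. USP18, which removes ISG15, and HERC6, which attaches it in mice, differed by -0.30 ± 0.28 and -0.27 ± 0.26, and by -0.0029 and 0.0041 without cow 1. A dimmer second USP18 probe, above background on all 20 arrays, gave -0.83 ± 0.28 (adjusted p = 0.115 over all probes, limma), so the size for USP18 depends on the probe.

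The antiviral effectors formed the largest group, with 14 members, of which 11 were tested; all 11 had negative differences, with a median of -0.55, and of -0.32 without cow 1. EIF2AK2 (PKR), a kinase that stops translation when it binds double-stranded RNA, was lower late in 10 of 10 cows. Its levels were -1.88, -0.95 and -0.48 late against -1.02, -0.33 and 1.22 early, so the ranges still overlap between cows. The difference was -0.70 ± 0.19 (adjusted p = 0.0777, limma) and -0.55 without cow 1. A dimmer second probe, above background on all 20 arrays, gave -0.47 ± 0.18 (adjusted p = 0.146 over all probes, limma).

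OAS1Y belongs to the family of synthetases that activate RNase L. Its levels were 2.26, 2.69 and 3.20 late against 2.59, 3.04 and 6.17 early, and 9 of 10 cows were lower late. The difference was -0.76 ± 0.31 (adjusted p = 0.184, limma) and -0.46 without cow 1. OAS1X, of the same family, had -9.19, -4.94 and -2.25 late against -9.18, -3.92 and 1.41 early, with a difference of -0.65 ± 0.35 (adjusted p = 0.295, limma) and of -0.32 without cow 1. Its 3 lowest cows in each period were not above background, so their differences carry no information on the gene.

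MX1, a GTPase that traps viral nucleocapsids, had 0.35, 1.01 and 2.27 late against 0.89, 1.62 and 4.62 early. The highest late array was cow 9 and the highest early arrays were cows 1 and 10. Its difference was -0.66 ± 0.37 (adjusted p = 0.308, limma), lower in 7 of 10 cows, and -0.32 without cow 1. Dimmer MX1 probes gave -0.80 and, on a probe above background on 13 of 20 arrays, -1.07 with all cows. IFIT2, of the family that binds foreign RNA ends, had -5.93, -5.29 and -4.77 late against -5.59, -4.91 and -2.12 early. Its difference was -0.69 ± 0.34 (adjusted p = 0.251, limma) and -0.34 without cow 1.

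CMPK2, a mitochondrial nucleotide kinase, had -5.69, -5.27 and -4.84 late against -5.56, -4.73 and -3.29 early. It was lower late in 9 of 10 cows, by -0.48 ± 0.20 (adjusted p = 0.181, limma), and by -0.32 without cow 1. The other tested effectors, BST2 (tetherin, which holds budding virus at the membrane), IFIT3, IFIT5, MX2 and RSAD2 (viperin), differed by -0.55, -0.52, -0.22, -0.48 and -0.27, none with an unadjusted p under 0.05. Without cow 1 they differed by -0.32, -0.29, -0.09, -0.23 and 0.16, and a second IFIT3 probe gave -0.11 with all cows.

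The 3 effectors below the filter had few arrays above background. IFIT1 was above it on 2 late and 3 early arrays, OAS2 likewise on 2 and 3. The 2 OAS1Z probes were above it on 0 and 1 late arrays against 2 and 1 early ones. In each of these probes the early array of cow 1 was the brightest early one, at -3.71 for IFIT1 against -6.92 on the next, and at -3.75 for OAS2 against -6.09. For the OAS1Z probes it stood at -3.84 and -3.50, against -6.13 and -6.85 on the next early array.

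The guanylate-binding proteins, GTPases that attack the membranes around intracellular pathogens, did not move together. GBP4 had 1.15, 2.84 and 4.50 late against 1.02, 2.87 and 3.32 early, with the lowest late array in cow 6, the lowest early array in cow 4 and the highest late array in cow 9. Its difference was 0.26 ± 0.30 (adjusted p = 0.630, limma), and 2 other probes gave 0.07 and 0.04. GBP5 differed by -0.42 ± 0.24, and by -0.27 without cow 1.

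Of the genes named for induction by interferon, IFI6, a mitochondrial protein that counters apoptosis, was lower late in 10 of 10 cows. It had 3.15, 3.52 and 3.73 late against 3.57, 4.01 and 6.64 early. Its late arrays were close together (SD 0.17) while cows 1, 4 and 10 were high early. The difference was -0.87 ± 0.29 (1.83-fold lower late, adjusted p = 0.120, limma) and -0.62 without cow 1. IFI27 had 2.13, 3.05 and 4.01 late against 3.06, 3.26 and 5.81 early, a difference of -0.63 ± 0.34 (adjusted p = 0.295, limma) and of -0.36 without cow 1. IFI16, a sensor of DNA, differed by -0.25 ± 0.18, IFI35 by -0.15 ± 0.08 and IFI44 by 0.01 ± 0.38, and without cow 1 by -0.10, -0.10 and 0.35. A second IFI35 probe gave -0.26 with all cows.

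Among the remaining members, LGALS3BP, a secreted glycoprotein that binds galectins, had the smallest p of all members. It had 1.04, 1.31 and 1.52 late against 1.38, 1.52 and 2.07 early, and was lower late in 10 of 10 cows. The difference was small, -0.31 ± 0.07 (1.24-fold lower late, adjusted p = 0.0625, limma), and it barely moved without cow 1 (-0.28). With cow as a random block its adjusted p was 0.0407 and that of EIF2AK2 0.0487, in a fit that called 3.69% of all genes, and with a trended and robust variance that of LGALS3BP was 0.0492, where 1.34% of all genes were called (limma).

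RTP4, a chaperone of receptors on their way to the membrane, had 0.66, 1.48 and 1.84 late against 1.1, 1.85 and 3.88 early. It too was lower late in 10 of 10 cows, by -0.72 ± 0.20 (adjusted p = 0.0873, limma), by -0.56 without cow 1 and by -1.03 on a dimmer second probe. SAMD9, which restricts poxviruses, had -0.66, -0.26 and 1.08 late against -0.12, 0.26 and 2.24 early, a difference of -0.58 ± 0.25 (adjusted p = 0.208, limma), and of -0.33 without cow 1. EPSTI1, PARP9, PARP14 (both ADP-ribosyltransferase family members) and XAF1 (an antagonist of an apoptosis inhibitor) differed by -0.32, -0.07, -0.02 and -0.04, and by -0.14, 0.06, 0.12 and 0.14 without cow 1. A second PARP14 probe, above background on all arrays, gave -0.47 with all cows, and the other tested probes of PARP9 and XAF1 gave -0.14 and -0.24, and -0.14. The 4 members lower late in all 10 cows, LGALS3BP, EIF2AK2, RTP4 and IFI6, stand beside 327 of 19236 genes with values on every array, which is 1.70% of them. For no member did all late arrays lie below all early ones, and the share of all genes that do so was not computed.

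The spread of the members over cows was wider early with all cows, and close to the late spread without cow 1. The late SD of a member was 0.37 at the median, and the early SD 0.75; over all genes these medians were 0.29 and 0.35. The early SD was above the late SD for 34 of 36 members with all cows, and for 19 of 36 without cow 1. Without cow 1 the median SD was 0.41 early and 0.38 late. That cow was chosen for its high early level, so a smaller early SD without it follows from that choice.

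Averaged over members as deviations from each gene's median of 20 arrays, the late arrays ran from -0.47 (cow 4) to 0.27 (cow 9), and the early array of cow 1 stood at 2.15. The other 9 early arrays lay between -0.19 (cow 4) and 0.63 (cow 10). Cow 1 was chosen here for this level, so what follows describes it without a test. Its early biopsy was taken on day 63, inside the range of the others. On its own slide the early arrays of cows 2, 3 and 4 stood at 0.06, 0.24 and -0.19. The array had 75.6% of spots well above background, a 75th percentile of 10.82 and 6.34% of all genes at their highest early level. These values summarise the signal of the array, and RNA quality was not tested. On the late array of cow 1 the members' mean deviation was -0.05. There 32 of 36 members lay within the range of the 9 other late arrays, a share not computed over all genes.

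**Figure D3:**
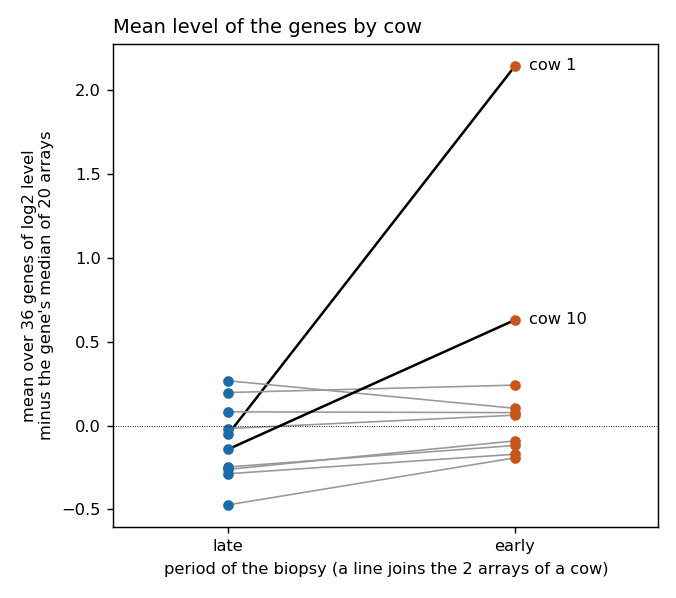
Mean over 36 interferon-stimulated genes of the log2 level minus the gene's median of 20 arrays, for the late (left) and early (right) array of each cow, joined by a line. Cow 1 stands at -0.05 late and 2.15 early and cow 10 at -0.14 late and 0.63 early; the other 8 cows lie between -0.47 and 0.27.

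The early array of cow 1 was the highest early array for 33 of the 36 members, where it was for 6.34% of all genes. The exceptions were STAT2, highest in cow 4, IFIH1, highest in cow 10, and GBP4, highest in cow 7. Against the median of the 9 other early arrays, cow 1 was higher by 2.0 on the log2 scale at the median of members (3.99-fold), and by -0.01 at the median of all genes. The excess passed 2-fold for 31 members (86.1%, against 2.90% of all genes). It passed 4-fold for 18 members, against 0.428% of all genes, and 8-fold for 6 of those 18. Of the 50 genes with the highest excess on the array, 14 were members, where members are 36 of the 19444 genes tested.

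The largest excess was that of OAS1X, at 6.12, taken against a median that includes 3 cows in which its probe was not above background. ISG15 followed at 3.77 (13.6-fold), RSAD2 at 3.55, IFI44 at 3.53, OAS1Y at 3.13 and MX1 at 3.02. The smallest were those of IFI35 (0.42), GBP4 (0.46), STAT2 (0.48), LGALS3BP (0.56) and TRIM25 (0.85). By role, the median excess was 2.84 for ISG15 and its enzymes, 2.69 for the effectors, 2.59 for the IFI-named genes, 1.80 for the remaining members, 1.42 for the RNA sensors, 1.19 for the signalling genes and 0.91 for the guanylate-binding proteins. The overlapping ISG15 probes gave 3.77 and 3.80, and the overlapping HERC6 probes 2.84 and 2.89.

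Between its own arrays, cow 1 was lower late for all 36 members, against 44.9% of all genes, with a mean over members of -2.20. Cow 10 came next, with 33 of 36 lower late, against 48.9% of all genes, and a mean of -0.77. In cow 9 the members went the other way, with a mean of 0.16. There 21 of 36 were higher and 15 lower late, where 53.5% of all genes were lower. The late array of cow 9 was the highest late one for 19 members and for 19.1% of all genes, the largest such share of any late array. The other 7 cows had means between -0.28 and 0.00. Leaving out cows 1 and 10 together, a choice made after these values were seen, 24 of 36 members were lower late, against 47.5% of all genes, with a median difference of -0.10. In that fit 5 had an unadjusted p under 0.05, against 17.2% of all genes, and none was called, against 0.0103% (limma).

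Some members differed between cows far more than between periods. The OAS1X probe was not above background in cows 4, 6 and 9 in both periods, at -8.83, -8.87 and -9.19 late and -8.99, -9.18 and -8.86 early. In the other 7 cows it was above background on both arrays, between -5.53 and -2.25 late and between -4.93 and 1.41 early. Over cows 2 to 10, the SD between cows of the mean of both periods was 2.72 for OAS1X, against an SD of 0.70 for its late minus early difference. OAS1Y, its neighbour in the family, showed no such split, with an SD between cows of 0.26.

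IFIH1 gave different pictures on its probes. On the brighter probe, cows 8, 9 and 10 had -1.98, -1.20 and -2.10 late and -1.70, -1.63 and -1.24 early. The 7 other cows lay between -4.47 and -4.04 late and between -5.17 and -2.63 early. On the probe that reads across an intron, whose sequence is shown above, the same 3 cows had -4.01, -3.62 and -4.55 late and -3.74, -3.76 and -3.40 early. There the other cows lay between -4.47 and -3.77 late and between -4.86 and -2.51 early, so the ranges of the groups of cows overlap. The difference by cow is thus seen on 1 of the 2 bright probes. IFI44, read by 1 probe, was low in cow 5 in both periods (-5.99 late, -6.01 early), and in cow 7 mainly early (-3.85 late, -6.14 early). Between cows its SD was 1.48, and that of IFIH1 on the brighter probe 1.33; GBP4 followed at 0.62, and every other member was at or below 0.53.

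**Figure D4:**
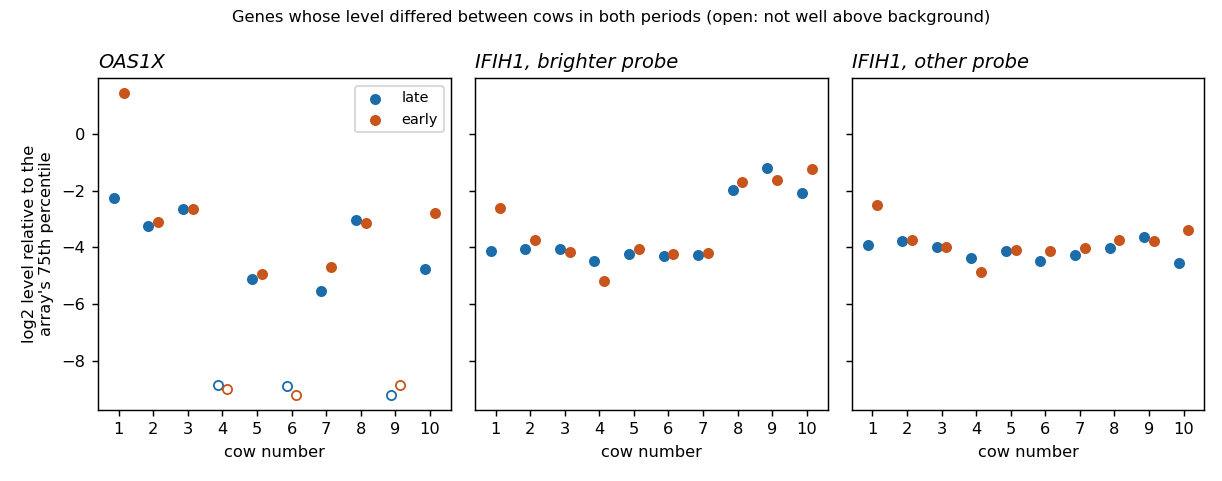
Log2 level by cow, late (blue) and early (orange), of the OAS1X probe and of 2 IFIH1 probes; open points were not well above background. OAS1X is not above background in cows 4, 6 and 9 in both periods; IFIH1 is high in cows 8, 9 and 10 on its brighter probe, and not on the probe that reads across an intron.

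Upstream of the members, interferon genes themselves were mostly too dim to test. Of 21 interferon ligands listed, 8 were on the array and 2 entered the test. IFNG, the interferon of T and NK cells, averaged -6.44 ± 1.37 late and -7.03 ± 1.03 early (SD, n = 10 each), and a probe named for the interferon tau family, IFNT3, -4.88 ± 0.22 late and -4.87 ± 0.18 early. Neither passed, with differences of 0.59 ± 0.35 and -0.01 ± 0.08, and on the early array of cow 1 they differed from the median of the others by 0.82 and -0.07. The IFNG probe was well above background on only 4 late and 4 early arrays, so its values are not well measured. IFNAA, IFNAC, IFNAG, IFNB3, IFNW1 and IFNK were below the filter.

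Of the receptor chains and kinases, 8 were tested, 6 had negative differences, against 47.1% of all genes, and none was called (limma). Unadjusted, 3 of the 8 were under 0.05, against 22.6% of all genes. The smallest p values belonged to IFNGR2 (-0.42 ± 0.15), JAK1 (-0.16 ± 0.06), IFNAR1 (-1.20 ± 0.48) and IFNAR2 (-0.22 ± 0.11). IFNAR1 was above background on 6 of 10 late arrays and all early ones, and its difference was -0.71 without cow 8. In cow 1 early, none of the 8 was over 2-fold above the median of the other early arrays, and the 3 receptor chains named lay between -0.71 and -0.02 there.

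Against 1.31% of all genes, 1 of 13 sensors and adaptors tested was called, TLR7, an endosomal sensor of single-stranded RNA. It averaged -7.16 ± 0.94 late and -6.04 ± 0.84 early (SD, n = 10 each), a difference of -1.12 ± 0.23 (adjusted p = 0.0450, limma), lower in 9 of 10 cows. Its probe was well above background on 3 of 10 late and 8 of 10 early arrays, so it passed the filter mainly through the early arrays and most late levels are at background; the size of its difference is not well measured. Of 6 other interferon regulatory factors, IRF5 alone was called, against 1.31% of all genes. IRF5 stood at -0.97 ± 0.55 late and -0.28 ± 0.58 early (SD, n = 10 each). Its difference was -0.70 ± 0.13 (adjusted p = 0.0329, limma), lower in 10 of 10 cows. IRF8, of the same family and known from macrophages and dendritic cells, differed by -0.94 ± 0.27 (adjusted p = 0.0933, limma). TLR7 lost its call without any one cow except cow 10 (adjusted p 0.0314 to 0.0895, limma), and its difference was only -0.25 after normexp background correction; IRF5 lost it without cow 1, 2, 3, 6, 8 or 10 (adjusted p 0.0406 to 0.0742, limma). With cow as a random block both lost their calls, at adjusted p 0.0524 for TLR7 and 0.0550 for IRF5, and with slide as a random block at 0.0819 and 0.0601 (limma). In cow 1 early they were not raised, at -0.53 and -0.05 against the median of the others, while the DNA sensor CGAS was higher by 1.87. The CGAS probe was well above background on only 4 late and 6 early arrays, and that median was -6.73, so the size of its excess is not well measured.

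None of the 8 negative regulators tested was called (limma), and 1 had an unadjusted p under 0.05, against 22.6% of all genes. None of the 8 was over 2-fold higher in cow 1 early, where 2.90% of all genes were. Of these regulators, PTPN11, a phosphatase, had the smallest p (-0.30 ± 0.10), followed by PTPN2, PIAS1 and PIAS4, all within 0.10 of 0. Of 24 further interferon-stimulated genes outside the member list, none was called (limma). In this list 20 were lower late, against 47.1% of all genes, and the median difference was -0.22. Unadjusted, 10 of the 24 were under 0.05, against 22.6% of all genes. The leading genes were ZC3HAV1, which directs viral RNA to decay (-0.25 ± 0.06), SAMHD1, which depletes nucleotides (0.34 ± 0.10), UBE2L6, the conjugating enzyme for ISG15 (-0.41 ± 0.12), and DTX3L (-0.57 ± 0.20). In cow 1 early, 11 of the 24 were over 2-fold higher, against 2.90% of all genes. The highest were ISG20 (2.77) and UBA7, the activating enzyme for ISG15 (1.91).

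Of 13 genes known to respond to interferon gamma, none was called either (limma), and the median difference was -0.14. Unadjusted, 2 of the 13 were under 0.05, against 22.6% of all genes. PSMB10, a subunit of the immunoproteasome, had the smallest p (-0.44 ± 0.12), followed by SERPING1, TAP1 and WARS1 at -0.43, -0.23 and -0.16. On the early array of cow 1, 6 of the 12 with a value there were over 2-fold higher, against 2.90% of all genes. The highest were CXCL9 (2.99) and CXCL10 (2.15), chemokines that attract T cells, and GBP1 (2.07).

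**Figure D5:**
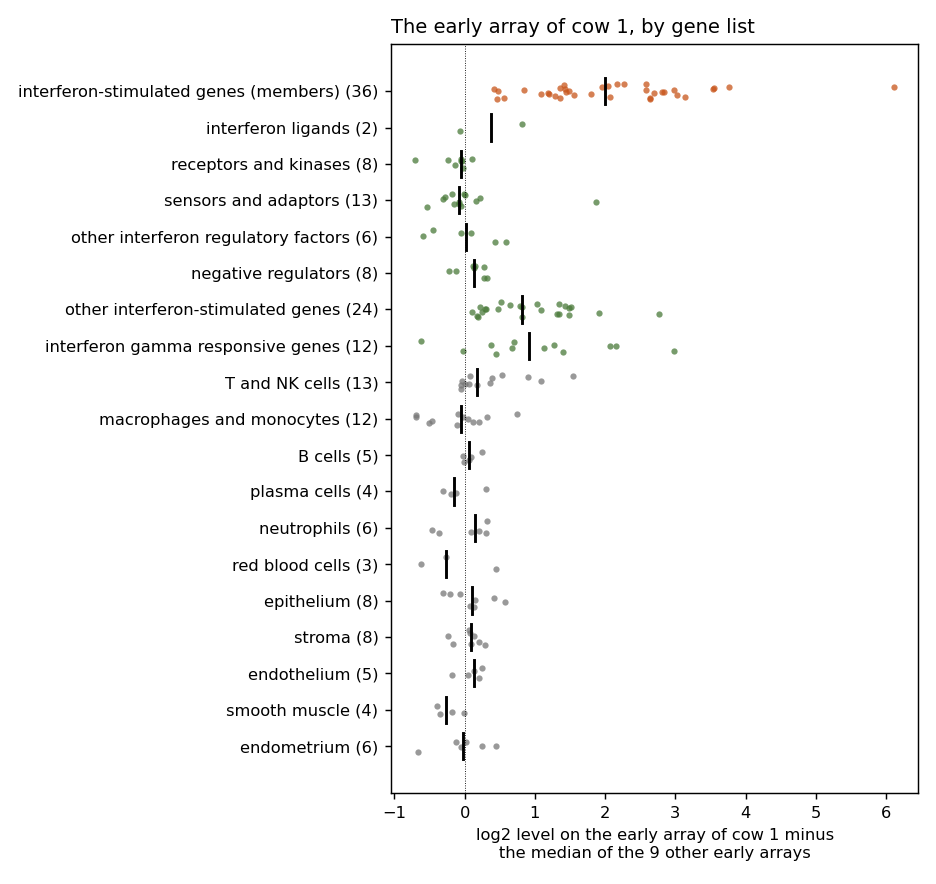
Log2 level on the early array of cow 1 minus the median of the 9 other early arrays, a point per gene, for the members, 7 lists of the interferon pathway and 11 lists of cell type markers; bars are medians and brackets hold the number of genes. The members have a median of 2.0, further interferon-stimulated genes 0.82 and interferon gamma responsive genes 0.92, while the cell type lists have medians between -0.27 and 0.17.

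Markers of cell types were set beside these values. Of 12 macrophage and monocyte markers, 11 were lower late and 4 were called, against 47.1% and 1.31% of all genes. The 4 were CD68 (-1.79 ± 0.22, adjusted p = 0.00553), VSIG4 (-1.47 ± 0.16, adjusted p = 0.00413), TYROBP (-1.07 ± 0.18, adjusted p = 0.0306) and MSR1 (-0.85 ± 0.13, adjusted p = 0.0181, limma). These fell late, in the direction most members had, and their part in the members' differences was not tested. The mean level of the list was between -1.13 and 0.73 late and between -0.54 and 1.27 early, with the early array of cow 1 at 0.15, and no macrophage marker was over 2-fold higher there. Of 13 T and NK cell markers tested, NKG7 alone was called (-1.20 ± 0.19, adjusted p = 0.0262, limma), against 1.31% of all genes. Without cow 1, 2 of the 4 macrophage markers and no T or NK cell marker were called. In that fit 0.226% of all genes were called, against 1.31% with all cows. The mean level of the T and NK cell list was between -2.73 and -1.44 late and between -2.41 and -1.52 early.

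Cow 1 held the highest early value of the T and NK cell list, -1.52 against at most -1.61 in the other cows, with GNLY and GZMA, proteins of cytotoxic granules, over 2-fold higher (1.55 and 1.09). In the same list, KLRK1, PRF1, GZMB and CD8A were higher there by 0.90, 0.53, 0.40 and 0.36, while NKG7 and CD8B stood at -0.03 and -0.05. NCR1 was below the filter. CD3E and CD2, which all T cells carry, were 0.08 and 0.17 above the median of the other early arrays, and the part of such cells in cow 1's values was not tested. No marker of B cells, plasma cells, neutrophils, red blood cells, epithelium, stroma, endothelium, smooth muscle or endometrium was over 2-fold higher in cow 1 early, and none of these lists had a called gene (limma).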

How the data were processed

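Endometrial RNA was labelled with Cy3 and hybridised to 1-colour arrays, per the labels' protocols. Per the file headers, Agilent Feature Extraction 10.5.1.1 made the deposited intensity values, a processed signal, a mean signal and a local background per spot. The deposited log2 table of the series matched the scanner values (lowest r 0.999969 per array) when those were put on a log2 scale, set relative to the 75th percentile and centred on each probe's median; it served as an alternative. Its column medians lay between -0.15 and 0.05.

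Control spots and spots marked as outliers were dropped, and repeat spots averaged by probe. Probes were renamed through RefSeq (ARS-UCD2.0, names only): 20595 by accession, 10745 by symbol, 376 by synonym and 1408 by gene number, while 10529 kept the array's name. The probe of highest mean represented a gene. In 208 genes, none of them a member, an array value was missing. The late against early fit used limma 3.58.1 under R 4.3.3 (lmFit, eBayes, two-sided, Benjamini-Hochberg over all 19444 genes, threshold 0.05) with cow as a block, from the titles and animal numbers. The 2 arrays of a cow correlated in their deviations from the period means between -0.11 and 0.76 (median 0.42; other cows -0.03), above 0.1 in 8 of 10 cows.

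On simulated data of 19236 genes, the test recovered 38% of genes with a true log2 change of 0.5, 78% at 1, 100% at 2 and 100% at 3, with 5 false calls. The changed genes were drawn at random. The noise was normal and independent, with no outlying cow and no slide effect, so these shares may not hold for the members. The precision rests on the number of arrays and the signal over background. The members and lists were chosen with earlier results of these data known. Values by period are given for the 10 members of smallest p, the 10 of largest difference and those above 0.2; other lists name up to 4 genes of smallest p. CGAS, ISG20, UBA7, CXCL9, CXCL10, GBP1, GNLY and GZMA were named after their values in cow 1 were seen. A gene of the pathway lists is not reported here and is left out of its list's counts. Alternatives were other pairings, normalizations, filters, probe rules, variance models, slide as a block, and leaving out cows.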

Additional observations from a re-analysis of the deposited data

Results flagged for a closer look

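Within each period, 74 series of 10 arrays (36 members and their mean deviation, late and early) were examined for an array far from the others, by the gap to the nearest array as a share of the whole range, with Dixon's 95% limit for 10 values; chance passes about 1 in 20 such series. In 25 the limit was passed, 24 of them early. In 23 of these it was the early array of cow 1 that lay above the rest; cow 1 was chosen for its early level, so these shares describe that array and are no test of it. The shares were 0.819 for HERC6, 0.672 for ISG15, 0.658 for USP18, 0.636 for MX2 and for PARP14, 0.628 for OAS1Y, 0.614 for RSAD2, 0.612 for MX1 and 0.600 for IRF9. They were 0.591 for BST2 and for PARP9, 0.577 for SAMD9, 0.575 for EIF2AK2, 0.569 for IFIT2, 0.538 for CMPK2, 0.514 for EPSTI1 and 0.507 for IFI6. The lowest were 0.504 for IFI16, 0.502 for IFIT3, 0.50 for IFI27, 0.479 for XAF1 and 0.476 for DDX58. The members' mean deviation gave 0.648, again cow 1. These series are not independent, since they come from the same arrays.

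For GBP4 early the array apart was at the low end, with cow 4 at 1.02 (0.526 of the range from the next array). ISG15 gave the only late series past the limit, where cow 9 stood at 2.29 (0.526), above the 9 other late arrays.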

How the results depend on the processing

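Of all genes, 255 were called (40.8% of them higher late); 119 were without the pairing by cow (no replicate block), 718 with cow as a random block, 114 without a filter, 0 with slide as a fixed block (limma, 366 with an unadjusted p under 0.05), 35 with slide as a random block, 0 on the slide with both periods alone (1722 unadjusted), 35 to 152 when any one cow was left out (44 without cow 1), and 2 without cows 1 and 10. Normexp gave 53.3% higher, quantile normalization 52%, and scaling by the median 50%. Members called were 0, but 2 with the random cow block and 1 with a trended and robust variance; leaving out any one cow gave 0. Their median ran from -0.39 to -0.19 as cows were left out and was -0.10 without cows 1 and 10. It was -1.29 with slide as a fixed block, a fit that gives every cow more weight. Without the pairing no member's call changed; TLR7 and IRF5 lost theirs (adjusted p 0.138 and 0.146, limma), as they did with cow or slide as a random block; TLR7 also did without a filter (0.0626).

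The sign turned in the following cases. IFI44 was -0.080 after normexp and -0.029 with slide as a random block; IFNT3 was 0.054 after quantile normalization and 0.015 after median scaling, where PARP14 was 0.0074; PIAS4 was -0.014 on the mean of its probes. With slide as a fixed block, HERC5 was -0.080, GBP4 -0.93, IFI44 -2.50, IFNT3 0.033, IFNG -2.12, IFNAR1 3.27, IFNAR2 0.50, IFNGR2 0.45, JAK1 0.031, IRF8 0.081, PIAS1 0.089, PIAS4 -0.10 and SAMHD1 -0.25. On the slide with both periods, OAS1X was 3.08, USP18 0.12, IRF7 0.080, PARP14 0.17, IFI44 -0.49, IFNG -0.42 and TAP1 0.26. Without cows 1 and 10, IFIH1 was 0.043, USP18 0.050, HERC6 0.024, RSAD2 0.29, IRF7 0.050, DHX58 0.086, PARP9 0.14, XAF1 0.22 and PARP14 0.14. Leaving out each cow in turn gave -0.34 to 0.0041 for HERC6, -0.42 to 0.16 for RSAD2, -0.19 to 0.033 for IRF7, -0.23 to 0.050 for DHX58, -0.13 to 0.065 for PARP9, -0.11 to 0.14 for XAF1, -0.13 to 0.12 for PARP14, -0.24 to 0.35 for IFI44 and -0.052 to 0.024 for IFNT3; the positive end was reached without cow 1 in all but IFNT3. The causes were not tested.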
